A study of Rattus norvegicus with 6 samples.

Results

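Claudins are membrane proteins with 4 transmembrane segments that line up into the strands of tight junctions, the seals between neighbouring epithelial cells. Some of them, such as claudin-1, claudin-3 and claudin-4, tighten the seal, while others, such as claudin-2 and the claudin-10 isoforms, form pores that let selected ions or water pass between cells. In the exocrine pancreas these junctions keep enzyme-rich juice inside the acinar lumen and the ducts. The 9 genes described here, Cldn1, Cldn2, Cldn3, Cldn4, Cldn7, Cldn10, Cldn12, Cldn18 and Cldn23, were picked by symbol as claudins of epithelial tight junctions, out of 19780 gene symbols in the count table, which holds 17 other numbered claudins. All 9 were found, each on its own row.

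Pancreas of male, wild type Sprague-Dawley rats, an outbred strain, aged 8 weeks when obtained, was profiled by bulk sequencing of poly(A) RNA in 3 samples with acute pancreatitis (AP) and 3 controls. AP was induced with L-arginine injected into the peritoneal cavity, an agent that injures acinar cells, and controls were injected with saline. Dose and time are uncertain, since the labels state 5 mg/kg for 36 hours whereas the design text states 2 × 2.5 g/kg with tissue taken at 48 hours. Totals ran from 17404247 to 18961353 counts in AP libraries and from 14453584 to 18196636 in control libraries. Nothing in the labels ties each sample to a separate animal, and every p-value therefore reflects only the variation among these samples, which may be technical. Values are normalised CPM, library-scaled counts after TMM scaling, which sets a gene relative to the middle of all tested genes. Scaling by library totals in place of TMM raised the median log2 fold change of tested genes by 2.18. A gene higher in AP with TMM is thus bound to stay higher, and only a lower gene can turn.

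The tissue label was checked against acinar genes. All 11 tested acinar markers, among them Prss1, Cpa1 and Ptf1a, were called lower in AP, and their summed level was 3165 to 25751 normalised CPM in AP libraries, highest in AP replicate 3, against 861542 to 906384 in controls. Normalised CPM are divided by TMM factors that averaged 0.470 in controls and 2.13 in AP, so these sums are not shares of reads. Of 9 tested ductal markers 4 were called higher (Krt7, Sox9, Spp1 and Car2) and 3 lower (Cftr, Muc1 and Onecut1), and their sum of 749 to 1043 in AP against 282 to 351 in controls was mostly Spp1 in the AP libraries, a secreted phosphoprotein that macrophages also make. With library totals 8 ductal markers were called higher and 1 lower, and Cftr (1.06) and Onecut1 (0.96) turned direction. Over all tested genes 34.1% were called higher and 30.5% lower with TMM, and 88.2% and 4.32% with library totals. All 7 tested macrophage markers rose (summed level 4971 to 5125 in AP, 145 to 183 in controls), with Marco at 0 in every library. In bulk tissue, fewer cells of a type and less RNA per cell cannot be told apart.

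In AP pancreas the claudins parted in both directions. Cldn2, the cation and water pore, rose 18.9-fold and Cldn4, a sealing claudin, rose 16.3-fold, while Cldn10, a pore-forming claudin, fell 66.3-fold and Cldn3, another sealing claudin, fell 2.11-fold (n = 3 per group, edgeR's quasi-likelihood test, adjusted p below 0.05 for each). Cldn1, Cldn7, Cldn12 and Cldn23 did not pass the test, and Cldn18 was too low to be tested. Thus 2 of the 8 tested members were called higher and 2 lower, beside 34.1% and 30.5% of all 13240 tested genes, so the shares called were near those of all genes. The same 4 members had groups that did not overlap, 2 higher and 2 lower, where 37.8% of tested genes lay wholly higher and 33.1% wholly lower (70.9% in either direction). The median log2 fold change of the 8 was 0.58, beside 0.07 for all tested genes. With library totals 7 members were called higher (88.2% of tested genes) and only Cldn10 lower (4.32%), so Cldn3 turned direction and Cldn2, Cldn4 and Cldn10 did not.

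**Figure D1:**
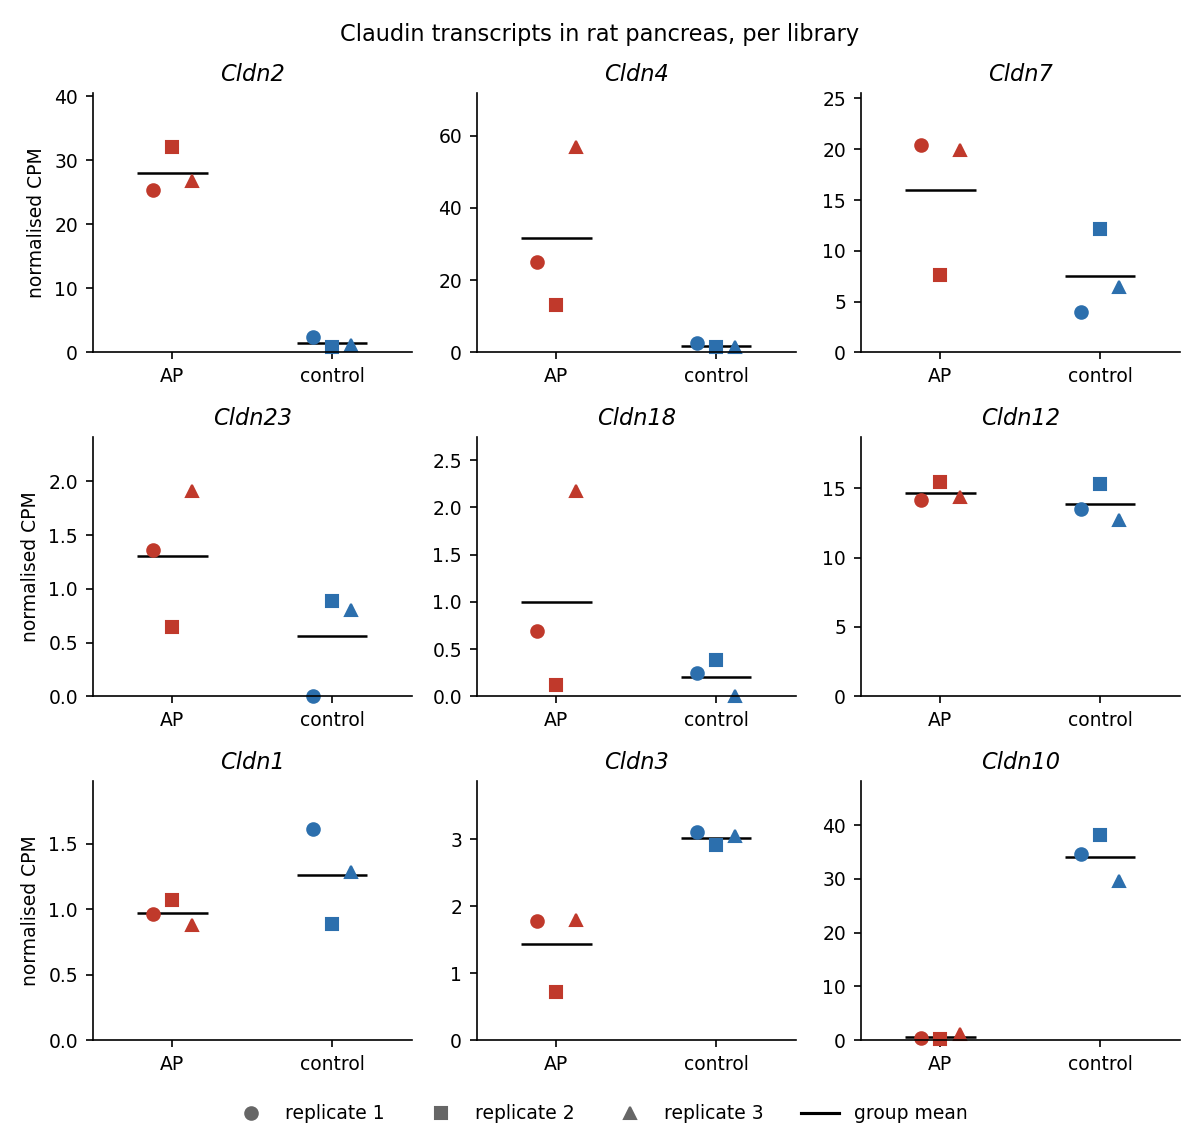
Normalised CPM of each of the 9 claudins (vertical axes, each from 0) in 3 AP and 3 control libraries, with marker shape for the replicate and a line for the group mean. Cldn2 and Cldn4 were higher and Cldn3 and Cldn10 lower in every AP library than in any control library with this scaling (Cldn3 turns direction with library totals), and the groups of the other 5 overlapped.

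Cldn2 stood at 25.3, 32.1 and 26.7 normalised CPM in AP replicates 1 to 3, against 2.36, 0.885 and 1.12 in control replicates 1 to 3. All AP values were within 1.27-fold of each other and far above the highest control. The log2 fold change was 4.24 ± 0.30 (SE, adjusted p = 6.89e-06), 6.41 with library totals and 3.96 to 4.82 when any 1 library was left out. The control level rests on 7 to 19 counts per library, against 908 to 1292 in AP libraries.

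Cldn4, which with claudin-3 is a receptor for a clostridial enterotoxin, stood at 25.0, 13.0 and 57.0 normalised CPM in AP replicates 1 to 3, against 2.61, 1.52 and 1.61 in controls. The groups were far apart, but AP replicate 3 held 4.37 times the level of AP replicate 2. The log2 fold change was 4.03 ± 0.60 (adjusted p = 0.000471), and without AP replicate 3 it was 3.29 (adjusted p = 0.000121). With library totals it was 6.17. The control libraries held 21, 12 and 10 counts, against 1013, 524 and 1936 in the AP libraries.

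Cldn10, whose isoforms form either cation or anion pores and are pooled in a count by gene, stood at 0.296, 0.124 and 1.18 normalised CPM in AP replicates 1 to 3, against 34.6, 38.3 and 29.6 in controls. The AP libraries held 12, 5 and 40 counts, and control libraries 279, 303 and 184. The log2 fold change was -6.05 ± 0.56 (adjusted p = 3.07e-05), -3.89 with library totals and -7.31 without AP replicate 3, the AP library with the most Cldn10. That library also had the highest summed level of acinar markers, and the part of acinar RNA in the Cldn10 result was not tested.

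Cldn3 stood at 1.78, 0.721 and 1.79 normalised CPM in AP replicates 1 to 3, against 3.10, 2.91 and 3.05 in controls. Control values hardly varied and AP replicate 2 was the lowest. The log2 fold change was -1.08 ± 0.41 (adjusted p = 0.0447). The call ended when any library other than AP replicate 3 was left out (adjusted p of 0.0545 to 0.103, with -0.76 without AP replicate 2) and with no filter on low counts (adjusted p = 0.0648), and it turned to 1.09 with library totals (adjusted p = 0.0307). In the RefSeq gene table Cldn3 and Cldn4 lie next to each other on chromosome 12 with no protein-coding gene between them, and the ratio of Cldn4 to Cldn3 counts, a pair chosen after its values were seen and one that no scaling can change, was 14.1, 18.1 and 31.7 in AP replicates 1 to 3, against 0.840, 0.522 and 0.526 in controls.

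Cldn7, a basolateral and junctional claudin that binds Epcam, stood at 20.4, 7.66 and 19.9 normalised CPM in AP replicates 1 to 3, against 3.97, 12.1 and 6.43 in controls. The groups overlapped through AP replicate 2 and control replicate 2. The log2 fold change of 1.09 ± 0.47 did not pass the test (adjusted p = 0.0703). It passed with DESeq2 (1.08, adjusted p = 0.0309), without AP replicate 2 (1.42, adjusted p = 0.0110), without control replicate 2 (1.64, adjusted p = 0.0266) and with library totals (3.26).

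Cldn12, a widely expressed claudin that lacks the usual binding motif for scaffold proteins, stood at 14.1, 15.4 and 14.4 normalised CPM in AP replicates 1 to 3, against 13.5, 15.3 and 12.7 in controls. The ranges overlapped closely, and the log2 fold change of 0.08 ± 0.14 (adjusted p = 0.649) had the smallest SE of the members. With library totals it was 2.26 (adjusted p = 1.14e-06), near the 2.25 that was then the median of all tested genes. Cldn1, the main sealing claudin of skin, stood at 0.962, 1.07 and 0.883 in AP libraries, against 1.61, 0.885 and 1.29 in controls, a log2 fold change of -0.37 ± 0.38 (adjusted p = 0.413) that turned to 1.79 with library totals.

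Cldn23, a claudin best known from the intestine, had 55, 26 and 65 counts in AP libraries and 0, 7 and 5 in controls, or 1.36, 0.647 and 1.91 against 0, 0.885 and 0.804 normalised CPM. Its log2 fold change of 1.24 ± 0.80 did not pass (adjusted p = 0.202), and was 0.62 without control replicate 1 and 1.83 without control replicate 2, neither called. With library totals it was called higher (3.37, adjusted p = 0.00236). Cldn18, a claudin of stomach and lung epithelium, had 28, 5 and 74 counts in AP libraries and 2, 3 and 0 in controls. It fell under the default filter on low counts, and with no filter its log2 fold change was 2.18 ± 1.17 (adjusted p = 0.148). Without AP replicate 2 it passed the filter and the test (2.65, adjusted p = 0.0320). Its level was 0.690, 0.124 and 2.18 normalised CPM in AP replicates 1 to 3, against 0.248, 0.379 and 0 in controls. Stomach markers summed to 0.0746 to 0.296 normalised CPM in AP libraries and 0.124 to 0.253 in controls, with Gkn2 at 0 in all libraries, Gkn1 and Tff1 at 0 in controls and Atp4b at 0 in AP libraries. The part of stomach tissue in the Cldn18 counts was not tested.

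**Figure D2:**
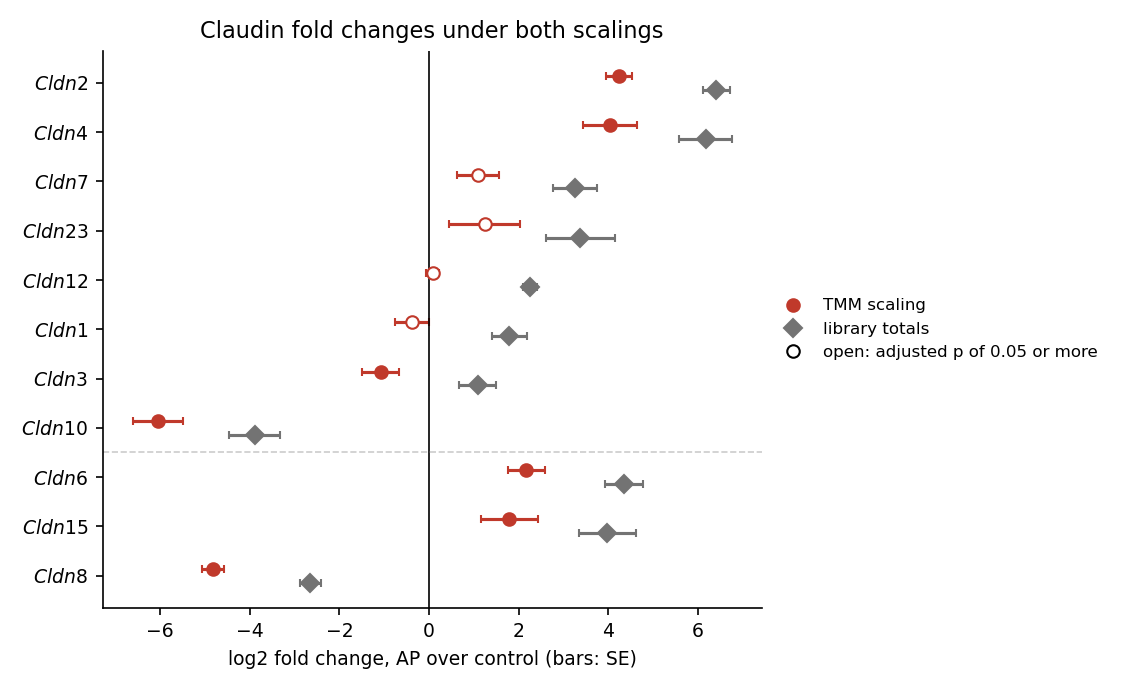
Log2 fold change, AP over control, of the 8 tested members and, under the dashed line, of 3 other claudins, with TMM scaling (circles) and library totals (diamonds). Bars are SE, and open symbols have an adjusted p of 0.05 or more. With library totals the genes lie further right, and Cldn3 and Cldn1 change sign.

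Within a library, the makeup of the claudin reads can be read without any scaling. These shares count reads and are not corrected for transcript length, so they compare a member between libraries and not members with each other. Cldn10 took 0.329%, 0.175% and 0.935% of the counts of the 9 members in AP replicates 1 to 3, against 55.8%, 52.3% and 52.3% in controls. All shares are parts of the same sum, so the drop of Cldn10 by itself raises the shares of the other members. The share of Cldn2 was 28.1%, 45.3% and 21.2% in AP libraries, against 3.8%, 1.21% and 1.99%. The share of Cldn4 was 27.8%, 18.4% and 45.2%, against 4.2%, 2.07% and 2.84%. Cldn3 was lower, at 1.97%, 1.02% and 1.43%, against 5.0%, 3.97% and 5.40%. With all claudins of the table in the sum, the mean share in AP minus that in controls moved to -24.96 percentage points, against -52.99 over the 9 members, for Cldn10, to -1.13, against -3.32, for Cldn3, and turned to 2.17, against -5.43, for Cldn12. Over the 9 members, Cldn2, Cldn3, Cldn4 and Cldn10 were the ones whose shares did not overlap between groups (two-sided exact permutation p = 0.1 each, the smallest that 3 against 3 allows, 0.225 after adjustment over 9 members), whereas Cldn7 took 16.4% ± 5.98 in AP and 11.4% ± 5.09 in controls (SD, n = 3 each, exact permutation p = 0.5). The summed level of the 9 members was 89.9, 71.0 and 125.9 normalised CPM in AP replicates 1 to 3, against 62.1, 73.2 and 56.6 in controls, and overlapped (exact permutation p = 0.2).

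**Figure D3:**
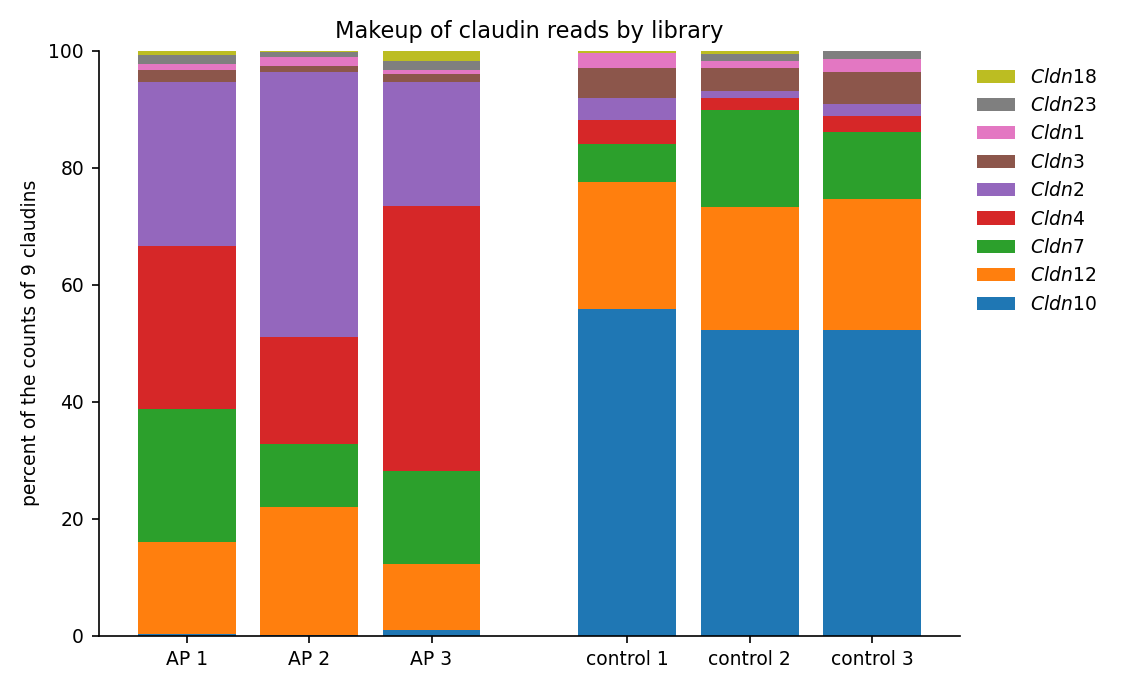
Percent of the counts of the 9 claudins taken by each (vertical axis, stacked to 100) in 3 AP and 3 control libraries. Cldn10 filled 52.3% to 55.8% of the control bars and at most 0.935% of an AP bar, where Cldn2 took 21.2% to 45.3% and Cldn4 18.4% to 45.2%.

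The members were also set against Cdh1, the gene of E-cadherin, the cadherin of most epithelial cells, in the same library. Cdh1 itself averaged 154 ± 72.0 normalised CPM over AP libraries, against 144 ± 7.03 over controls (SD, n = 3 each, log2 fold change 0.09 ± 0.32, adjusted p = 0.817), and Epcam, an epithelial surface protein, averaged 103 ± 44.3 in AP and 109 ± 7.77 in controls (-0.09 ± 0.28, adjusted p = 0.795, and 2.07 when scaled by totals). Per 100 Cdh1 counts, AP replicates 1 to 3 held 15.1, 42.4 and 12.3 Cldn2 counts, against 1.56, 0.612 and 0.822 in controls. They held 14.9, 17.2 and 26.2 Cldn4 counts, against 1.73, 1.05 and 1.17. Cldn10 counts were 0.177, 0.164 and 0.540, against 22.9, 26.5 and 21.6, and Cldn3 counts 1.06, 0.953 and 0.824, against 2.06, 2.01 and 2.23. Cldn7 now lay apart as well, at 12.2, 10.1 and 9.16 per 100 Cdh1 counts in AP libraries, against 2.63, 8.39 and 4.69, and so did Cldn23, at 0.809, 0.854 and 0.878, against 0, 0.612 and 0.587. In sum, 4 members were wholly higher, 2 wholly lower and 3 overlapped, with Cdh1 or with Epcam as the base (exact permutation p = 0.1 for each of the 6, 0.150 after adjustment over 9 members). How many of all genes lay apart per Cdh1 count was not computed. In normalised CPM 70.9% of tested genes did, so the count is not read as particular to claudins.

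Among the AP libraries, the members varied in separate ways. AP replicate 2 was the lowest AP library for 6 members, Cldn3, Cldn4, Cldn7, Cldn10, Cldn18 and Cldn23, as it was for Cdh1 (168, 75.7 and 218 normalised CPM in AP replicates 1 to 3) and Epcam (99.3, 59.8 and 148). For these 6 the spread among AP libraries was smaller per Cdh1 count than in normalised CPM. The highest value was 2.49 times the lowest for Cldn3 and 1.29 times per Cdh1 count, 2.66 and 1.33 for Cldn7, 2.96 and 1.09 for Cldn23, and 4.37 and 1.75 for Cldn4. Cldn10 and Cldn18 stayed widely spread, at 9.46 and 3.29 times and at 17.5 and 6.09 times. The other 3 members, Cldn1, Cldn2 and Cldn12, were highest in AP replicate 2 and spread by 1.21, 1.27 and 1.09 times in normalised CPM but by 3.49, 3.46 and 3.09 times per Cdh1 count. This division was noticed in the values of 3 libraries and was not tested. Dividing by Cdh1, itself lowest in AP replicate 2, widens members highest there and tends to narrow members lowest there. The spreads per Cdh1 count thus largely restate the division.

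**Figure D4:**
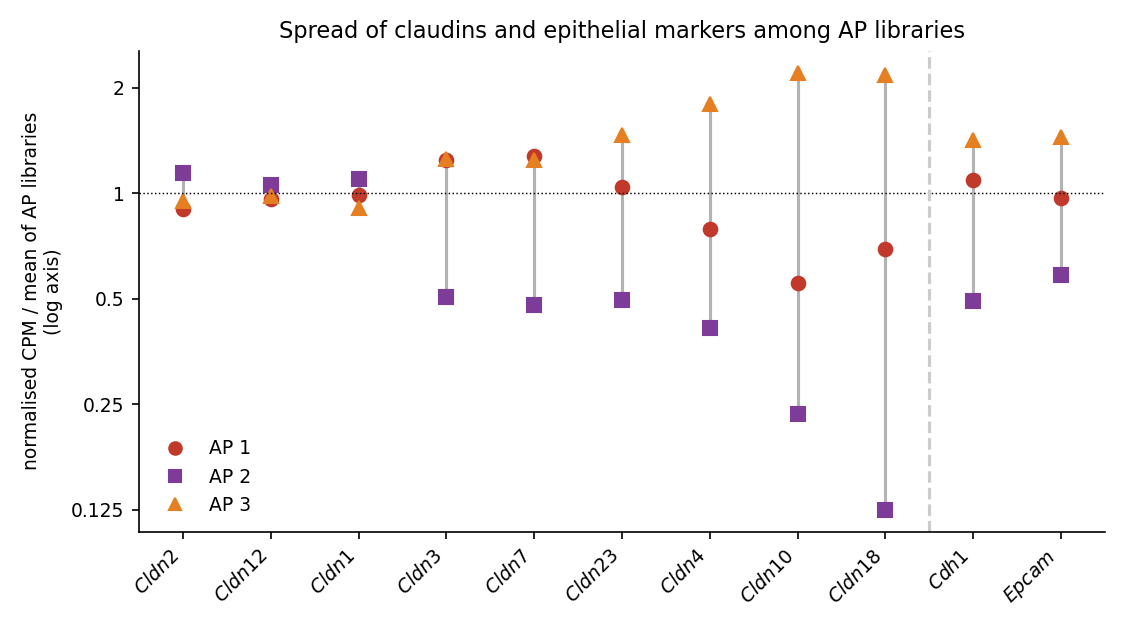
Normalised CPM in each AP library divided by the mean of the 3 AP libraries (log axis) for the 9 members and, right of the dashed line, for Cdh1 and Epcam. AP replicate 2 is the lowest point for 6 members and for both epithelial genes, and the highest for Cldn1, Cldn2 and Cldn12.

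Over the 6 libraries, the gene with the level most like each member was sought by Pearson's r of log2 CPM among the other members and the tested genes of the junction lists. The libraries fall into 2 groups, so any gene with a large difference between them scores high. The closest gene was Twist2 for Cldn2 (r = 0.997), Epha2 for Cldn4 (r = 0.985), Foxa2 for Cldn10 (r = 0.998) and Lsr for Cldn3 (r = 0.985). Twist2 had 1, 0 and 0 counts in control replicates 1 to 3, so its control level lies at the floor. For Cldn7 the closest gene was Nectin2 (r = 0.916), for Cldn23 it was Cldn7 (r = 0.858), and for Cldn12, Cldn1 and Cldn18 it was Cldn11, Jam3 and Ctnnd1 (r = 0.879, 0.833 and 0.789). The AP and control groups of Cldn7, Cldn23, Cldn12, Cldn1 and Cldn18 all overlapped. Cldn11 had 0, 3 and 0 counts in control replicates 1 to 3, near the floor.

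Windows around the annotated start, 250 bases before to 50 after it, were taken from RefSeq (build GRCr8; the table of windows used here held Cldn1, Cldn3, Cldn7, Cldn10, Cldn12 and Cldn18, 6 of the 9 members, and the windows of Cldn2, Cldn4 and Cldn23 were not analysed here) and searched on both strands for 8 motifs, of which 7 are given here. The motifs were the TATA box with the letters TATAAA, the CCAAT box with just those letters, the GC box spelled GGGCGG, the AP-1 motif spelled TGANTCA, the E-box of Snail and Zeb repressors spelled CACCTG, the Grainyhead-like motif spelled AACNGGTT and the CDX motif spelled TTTATGG, with N for any base. Capitals mark every match in the windows shown. The windows of the 2 members that fell and of Cldn7 are shown, the first pair to set a window poor in GC beside a richer one and the last for its E-boxes.
Cldn10, GRCr8 chr15:102269608-102269907, plus strand: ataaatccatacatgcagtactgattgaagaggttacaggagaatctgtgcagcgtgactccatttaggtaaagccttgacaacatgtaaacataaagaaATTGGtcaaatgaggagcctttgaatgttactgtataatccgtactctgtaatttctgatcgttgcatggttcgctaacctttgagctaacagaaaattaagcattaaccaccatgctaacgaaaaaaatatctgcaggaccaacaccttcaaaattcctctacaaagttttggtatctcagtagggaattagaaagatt
Cldn3, GRCr8 chr12:27346498-27346797, minus strand: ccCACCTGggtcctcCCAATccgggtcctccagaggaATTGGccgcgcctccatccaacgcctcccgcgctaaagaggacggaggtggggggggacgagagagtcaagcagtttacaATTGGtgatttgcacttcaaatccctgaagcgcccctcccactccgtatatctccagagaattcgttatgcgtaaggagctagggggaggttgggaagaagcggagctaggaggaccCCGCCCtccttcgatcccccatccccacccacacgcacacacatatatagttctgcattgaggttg
Cldn7, GRCr8 chr10:55188420-55188719, plus strand: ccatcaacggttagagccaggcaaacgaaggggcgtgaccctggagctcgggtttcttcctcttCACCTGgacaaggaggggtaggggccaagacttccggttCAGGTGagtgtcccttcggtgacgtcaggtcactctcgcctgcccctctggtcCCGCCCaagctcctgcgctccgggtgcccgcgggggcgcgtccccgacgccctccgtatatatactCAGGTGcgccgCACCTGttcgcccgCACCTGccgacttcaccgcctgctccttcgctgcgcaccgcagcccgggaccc

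The Cldn7 window held 5 E-boxes, a number reached by 4 of 33469 RefSeq windows (0.0120%), whereas 18.8% held at least 1. The cutoff of 5 was taken from the Cldn7 window after it was seen. The Cldn3 window held 1 E-box, 3 CCAAT boxes and 1 GC box, and the Cldn10 window held 1 CCAAT box, a motif present in 37.5% of windows, and no other match. The GC content was 37.0% for Cldn10, 58.0% for Cldn3 and 67.0% for Cldn7, beside a median of 51.7% over all windows, and CpG pairs numbered 5, 16 and 28, beside a median of 7. A GC box was present in 4 of the 6 windows and in 33.1% of all, a CDX match in Cldn12 and in 3.07% of all, and the TATA box, the AP-1 and the Grainyhead-like motif in none of the 6, beside 14.2%, 7.33% and 2.10% of all. No matches overlapped. A match is no shown site, and counts by gene do not show which start was used.

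Genes of factors that act on epithelial junctions went both ways in AP. Of 18 tested epithelial transcription factors and their repressors, 6 were called higher and 8 lower, with a median log2 fold change of -0.62, or 10 higher and 4 lower with library totals. All tested genes gave 34.1% and 30.5% with TMM, and 88.2% and 4.32% with library totals. The E-box repressors Zeb2 (log2 fold change 4.16 ± 0.25), Snai1 (2.86 ± 0.27) and Snai2 (2.34 ± 0.49) rose, and rose with library totals too, while Zeb1 was at 0.45 ± 0.23 (adjusted p = 0.115). Control counts were few for Snai1 (8, 10 and 8) and Snai2 (4, 4 and 9). Zeb2 stood at 219, 230 and 164 normalised CPM in AP replicates 1 to 3, against 12.8, 7.58 and 14.1 in controls, with no overlap. Macrophages and fibroblasts also express Zeb2, and the macrophage markers given above and 7 of 8 fibroblast and stellate markers rose (summed level 2098 to 4809 in AP, 491 to 678 in controls). Their part in the Zeb2 result was not tested. Hnf4a (-2.74 ± 0.18) and Foxa2 (-2.94 ± 0.24), factors of endoderm epithelium, fell under either scaling, while Grhl2 (-1.96 ± 0.21), an activator of junction genes, fell and stood at 0.21 with library totals. Cdx1 was at 0 in every library.

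Other proteins of the tight junction were called lower more often than higher with TMM scaling. Of 11 tested membrane proteins 1 was called higher and 5 lower (median log2 fold change -0.61), and of 24 tested scaffold and polarity proteins 5 were called higher and 14 lower (median -0.64). With library totals these counts were 7 and 0 and 23 and 0, so the direction of both lists rests on the scaling. Of all tested genes 34.1% were called higher and 30.5% lower with TMM, and 88.2% and 4.32% with library totals. Igsf5 (-1.97 ± 0.22), Ildr1 (-2.74 ± 0.36), a protein of the corners where 3 cells meet, and Marveld2 (-1.61 ± 0.22), tricellulin, had the lowest p among the membrane proteins. With library totals Igsf5 was at 0.20, Marveld2 at 0.57 and Ildr1 at -0.58, without a call for Igsf5 and Ildr1. Among the scaffolds, Cgnl1 (-2.17 ± 0.17), paracingulin, and Magi1 (-1.65 ± 0.15) fell and turned to 0.02 and 0.53 with library totals, while Arhgef2 (2.31 ± 0.19), a nucleotide exchange factor that cingulin holds at the junction, rose under either scaling. Tjp1, the scaffold ZO-1 that binds claudin tails, averaged 57.9 ± 7.03 normalised CPM over AP libraries, against 86.6 ± 4.63 over controls (SD, n = 3 each). Its log2 fold change was -0.58 ± 0.12 (adjusted p = 0.00311) and turned to 1.60 with library totals. Ocln was not analysed here.

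Of 12 tested adherens junction genes 3 were called higher and 2 lower (median 0.15), or 11 and 0 with library totals. The shares of all tested genes, for this list and the next, were 34.1% and 30.5%, or 88.2% and 4.32% with library totals. Vcl (1.31 ± 0.16), vinculin, rose, and Ctnnb1 (-0.69 ± 0.13), beta-catenin, and Plekha7 (-0.93 ± 0.23) fell and turned to 1.49 and 1.26 with library totals. Among 16 tested partners and regulators of claudins 7 were called higher and 5 lower (median 0.33), or 14 and 0 with library totals. Ephb2, a receptor kinase, rose by 4.82 ± 0.51 on the log2 scale, and Epha2, a receptor kinase that phosphorylates claudin-4, by 2.19 ± 0.31. The control level of Ephb2 rests on 2, 1 and 3 counts. Epha2 stood at 12.9, 7.29 and 12.9 normalised CPM in AP replicates 1 to 3, against 2.86, 2.27 and 2.09 in controls. Lnx1 (-2.05 ± 0.16), a ubiquitin ligase known to act on claudins, and Spint2 (-2.68 ± 0.29), a protease inhibitor, fell, and stood at 0.14 and -0.51 with library totals, neither called. Over all 6 lists, 24 of 85 tested genes were called higher and 35 lower, beside the 34.1% and 30.5% of all tested genes. Under both scalings 24 were higher and 5 lower, Cldn8, Foxa2 and Hnf4a among the lower. The shift of 2.18 keeps genes called higher with TMM on that side, so only lower calls could have turned. The share of all genes called under both scalings was not computed.

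**Figure D5:**
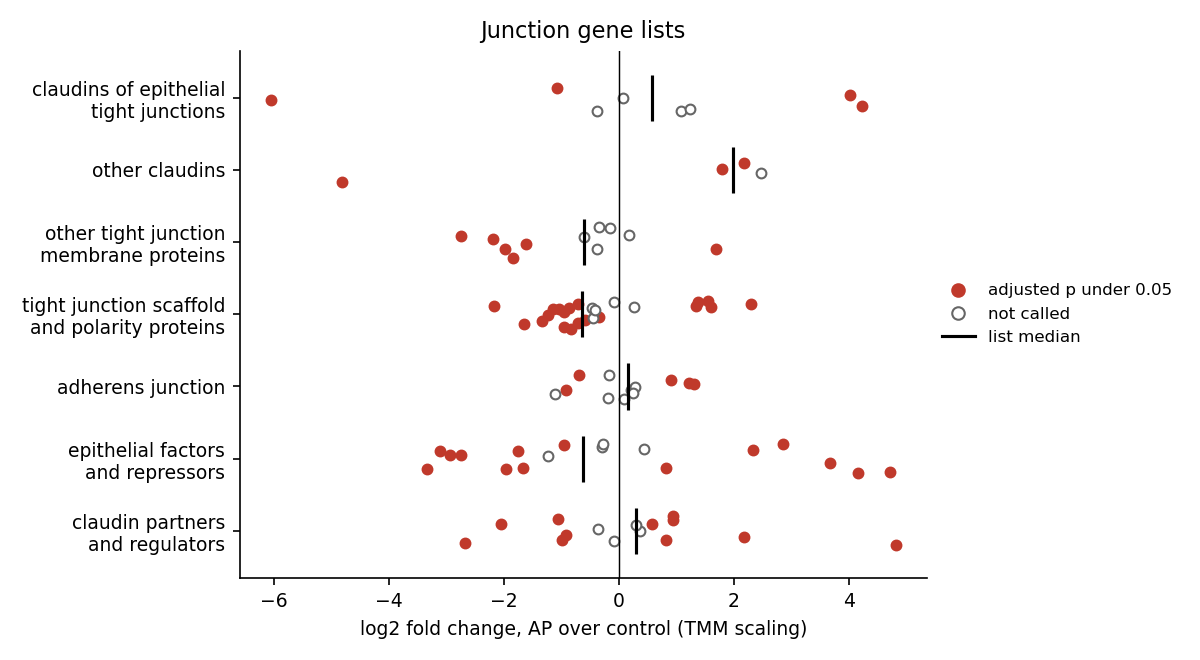
Log2 fold change, AP over control with TMM scaling, of the tested genes with counts in both groups in the claudin set and in 6 junction lists (rows), with filled points for an adjusted p under 0.05 and a line at the list median. The claudins spread from -6.05 (Cldn10) to 4.24 (Cldn2).

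Claudins outside the set of 9 also went both ways. Cldn8, a sealing claudin of distal nephron and colon, fell to 1.97, 1.64 and 3.21 normalised CPM in AP replicates 1 to 3, against 63.7, 58.4 and 69.3 in controls (log2 fold change -4.82 ± 0.25, adjusted p = 1.83e-06, -2.65 when scaled by totals), and no AP value came near a control value. Cldn6, known from embryonic epithelium, rose to 25.5, 10.1 and 26.4, against 2.98, 4.68 and 6.27 (2.17 ± 0.42, adjusted p = 0.00192), and AP replicate 2 was again the lowest AP library. Cldn15, a cation pore of the intestine, was at 5.77, 6.84 and 3.77, against 1.86, 0.126 and 2.89 (1.79 ± 0.63, adjusted p = 0.0336). Its call ended without AP replicate 1, AP replicate 2 or control replicate 1 (adjusted p of 0.0719 to 0.0812) and with replicate numbers as a block (0.0564), and it was 2.45 without control replicate 3. Cldn11, known from myelin and Sertoli cells, did not pass (2.48 ± 1.10, adjusted p = 0.0774), with 14, 57 and 19 counts in AP libraries and 0, 3 and 0 in controls. It passed with replicate numbers as a block (2.66, adjusted p = 0.0392), once control replicate 2 was left out (adjusted p = 0.0426, with no control count left) and under scaling by totals (4.55, adjusted p = 0.00182), and stood at 1.69 without AP replicate 2 (adjusted p = 0.204). Cldn17, Cldn20 and Cldn22 had 4, 16 and 13 counts over the AP libraries, against 12, 1 and 4 over the controls, and fell under the default filter. With no filter Cldn17 was called lower (-3.69 ± 0.88, adjusted p = 0.00522), and Cldn20 (adjusted p = 0.376) and Cldn22 (adjusted p = 0.663) were not called. Cldn14, Cldn16, Cldn19, Cldn25, Cldn34a, Cldn34b4, Cldn34c4, Cldn34d and Cldn34e were at 0 in every library, and Cldn24 had 1 count in all. Cldn5 and Cldn9 were not analysed here.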

How the data were processed

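The deposited values are raw counts for each gene, in whole numbers. Per the submitters' processing notes, FastQC, STAR, featureCounts, DESeq2 and the build mRatBN7.2 were used. Tool versions, annotation release, strand setting and how multimapping reads were treated: not given in the sources used here. Of 23096 rows, 3110 carry no gene name and stayed out of library sizes and tests (1.41% to 2.10% of counts in AP and 5.48% to 7.69% in control libraries). Rows sharing a symbol were summed, which touched no claudin. In RefSeq, Cldn18 overlaps a long non-coding RNA that has no row of its own here, and no other member overlaps a gene.

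Groups were compared with edgeR 4.0.16 in R 4.3.3 (quasi-likelihood test), on 3 AP and 3 control samples, with TMM scaling, the default filter on low counts, no covariate and Benjamini-Hochberg adjustment over all tested genes, at an adjusted p of 0.05. TMM factors averaged 2.13 in AP and 0.470 in controls. The SE was derived from each gene's fold change and F statistic. The test was tested on simulated data. Pairs within a group differed beyond sampling noise (a mean of 39.5 to 148 chi-square units over genes with at least 20 counts in the pair). None was therefore counted as 1 library deposited again, and this does not show that they came from separate animals. Within-library ratios used log2 of counts plus 0.5 and two-sided exact permutation tests. Intervals of counting were not used. Precision is limited by counts of under 100 in every library for Cldn1, Cldn3, Cldn18 and Cldn23. The same holds in all control libraries for Cldn2, Cldn4 and Cldn7, and in all AP libraries for Cldn10.

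The members, lists and tests were chosen with earlier results of these data known. Named were all members, other claudins with at least 10 counts, the 3 genes of each junction list with the lowest p and the gene most like each member. Other genes named were chosen after their values were seen. Alternatives were the DESeq2 1.42.0 Wald test, limma-voom (limma 3.58.1), library totals, upper quartile scaling, DESeq2 size factors, a stricter filter (50 counts in 3 samples) or none, replicate numbers as a block, each library left out, Epcam for Cdh1, a pseudocount of 1 and all claudins in the share. RefSeq names and sequences are of GRCr8, to which all 9 members matched. Some list genes and motifs are not reported here.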

Additional observations from a re-analysis of the deposited data

How the results depend on the processing

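Of the 9 members, Cldn2, Cldn4 and Cldn10 kept their direction and their call in all 14 alternatives to the edgeR test, and Cldn1, Cldn12 and Cldn23 passed only with library totals. With library totals 11680 genes were called higher in AP and 572 lower, against 4520 and 4032 with TMM; claudin members were 7 and 1, and junction list genes 68 and 5. Members called lower were 1 with no filter and 1 with the filter of 50 counts in 3 samples, under which Cldn3 was not tested. Leaving out 1 library gave 2 to 4 members called higher and 1 to 2 called lower, with Cldn7 and Cldn18 added without AP replicate 2 and Cldn3 lost in 5 of 6 fits. Among the genes named by rule and tested under each alternative, signs that turned with library totals included those of Cldn1 (1.79), Cldn3 (1.09), Igsf5 (0.20), Marveld2 (0.57), Cgnl1 (0.018), Magi1 (0.53), Ctnnb1 (1.49), Plekha7 (1.26) and Lnx1 (0.14), and others given in the text, such as Tjp1, Grhl2, Epcam, Cftr and Onecut1, turned too, which follows from the shift of 2.18 in all genes. Replicate numbers are shared between groups but nothing says they pair the samples: same-numbered libraries had correlations of -0.11 to 0.03 in their deviations, and 1 of 3 AP libraries was closest to its own number. With the replicate block 7904 genes were called in place of 8552, and members called stayed at 2 higher and 2 lower. Low counts limit Cldn1, Cldn3, Cldn18 and Cldn23 and, in controls or in AP alone, Cldn2, Cldn4, Cldn7 and Cldn10. The exact tests cannot go below p = 0.1.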

Other observations

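Genes that mark epithelium in general did not move together. Krt8 and Krt18, the keratins of simple epithelia, ranged from 189.9 to 381 and from 145 to 301 normalised CPM over the AP libraries, against 199.6 to 220.7 and 155 to 175 over controls, and did not pass edgeR's test (adjusted p = 0.103 and 0.115), like Cdh1 and Epcam. Esrp1 and Esrp2, which set epithelial splice forms, fell. Esrp1 stood at 14.2, 6.22 and 18.7 normalised CPM in AP replicates 1 to 3, against 80.4, 93.4 and 83.4 in controls (-2.72 ± 0.35 on the log2 scale, adjusted p = 0.000187). Scaled by library totals it was at -0.55 and not called. Esrp2 stood at 3.77, 2.56 and 6.91, against 55.9, 51.6 and 55.3 (-3.62 ± 0.33, adjusted p = 2.59e-05), and its call held when scaled by totals (-1.46, adjusted p = 0.00114). All 5 tested mesothelial markers were called higher (summed level 124 to 182 normalised CPM in AP, 18.8 to 57.1 in controls), with Krt5 at 0 in every library. The same 5 were called higher with library totals. Among all tested genes 34.1% were called higher with TMM and 88.2% with library totals. The genes of this paragraph were picked after their values were seen.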
